A study of Arabidopsis thaliana with 12 samples.

Results

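The genes described here are 6 members of the SWEET family of Arabidopsis thaliana sugar transporters, SWEET3 (AT5G53190), SWEET7 (AT4G10850), SWEET9 (AT2G39060), SWEET10 (AT5G50790), SWEET13 (AT5G50800) and SWEET14 (AT4G25010). They were taken by gene symbol from the platform's probe annotation, with probe sets of 1 gene only, and each had 1 probe set. They are 6 of the 13350 genes that have one-gene probe sets, and such probe sets number 13513 in all. The choice was made with the arf6 arf8 difference from wild-type at flower stages 11-12 and 13-14 already known, where 5 of the 6 were lower and SWEET10 was higher. That difference is therefore described below without a test.

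SWEET proteins are membrane carriers that let sugars pass down their concentration gradient, and plants use them wherever sugar has to leave a cell: in phloem loading, in seed filling, in feeding pollen and in nectar. SWEET9 is the carrier of the floral nectary that exports sucrose into nectar. SWEET10, SWEET13 and SWEET14 belong to the same sucrose-transporting clade as SWEET9. SWEET13 and SWEET14 also carry gibberellin and are needed for timely anther dehiscence, and SWEET10 is activated at the shoot apex at the floral transition. SWEET7 belongs to the clade that mainly carries hexoses and SWEET3 to another clade. ARF6 and ARF8 are DNA-binding proteins of the auxin response factor family and drive the late growth and opening of the flower.

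The 12 samples were 1 array each for 3 genotypes in 4 tissues. The genotypes were the double mutant arf6 arf8, an intermediate genotype titled arf6/arf6 ARF8/arf8, and wild-type Columbia. The tissues were flowers of stages 1-10, flowers of stages 11-12, flowers of stages 13-14 and about 0.5 cm of stem just below the inflorescence, all from plants grown in long days for 6 weeks without treatment. The design text writes the intermediate genotype as ARF6/arf6 arf8/arf8. Under either reading 1 functional copy of the gene pair is left, and these plants are called single-copy plants here. The labels do not name the arf6 and arf8 alleles or say how many plants gave each RNA. Whole flowers were extracted, so in every result below fewer cells of a type and less RNA per cell cannot be told apart.

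Values are MAS5 signal intensities on a linear scale. They were compared as log2(signal + 50), a scale that understates the change of dim probe sets. Probe sets with a signal of 100 or more in 1 library or more were kept, 17647 of 22746, and all 6 genes were among them. Signals below 100 are treated here as low without a detection call. The 12 libraries were alike in median signal (191.7 to 235.45) and in the share of probe sets at 100 or more (63.3% to 66.7%). They were less alike in the ratio of 3' to 5' signal of the control transcripts. For Actin it ran from 1.80 (arf6 arf8 stem) to 3.47 (single-copy stages 11-12), with 3.03 in wild-type and 2.36 in arf6 arf8 at stages 11-12. For GAPDH it ran from 0.715 (wild-type stem) to 1.25 (wild-type stages 11-12). The bearing of these ratios on the results was not tested. Among single-copy plants, the stage 1-10 and stage 13-14 arrays had the highest and lowest mean signal of the bioB hybridisation control, a spiked bacterial transcript, 352.9 and 115.7 beside 193.1 to 306.8 in the other libraries. Results that rest on these arrays are therefore also given without both. This leaves 1 single-copy library in older flowers (stages 11-12) and 1 in younger tissue (stem). There were no replicates within a genotype and tissue.

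The 6 genes had 3 kinds of course. SWEET9, SWEET13 and SWEET14 had far lower signals in young buds and stem than in older flowers of wild-type and single-copy plants. This late increase was small or absent in arf6 arf8. SWEET3 and SWEET7 were high in young buds, and their signal was lower in arf6 arf8 than in wild-type in older flowers. SWEET10 was high in the flowers of all genotypes and higher in both mutants than in wild-type in all 4 tissues.

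**Figure D1:**
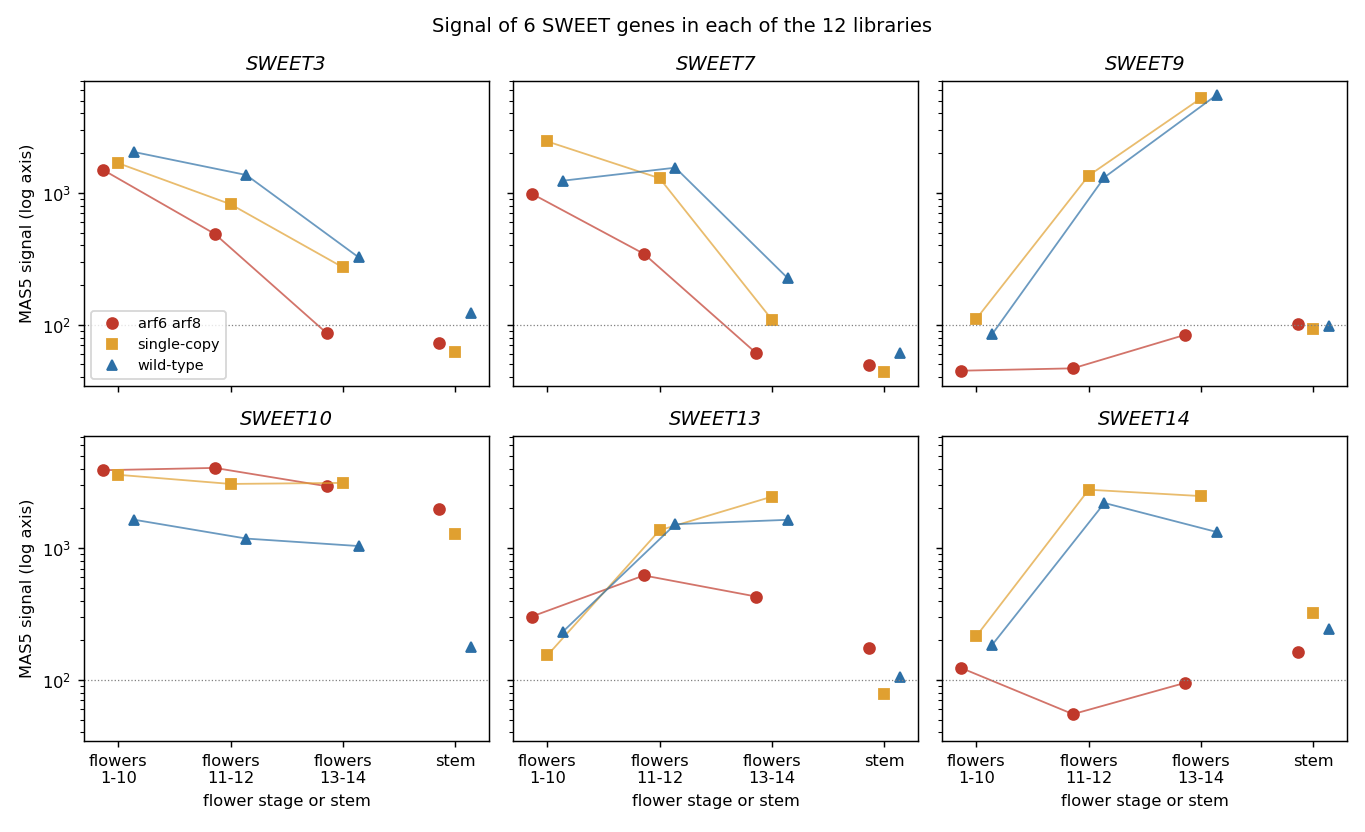
MAS5 signal on a log axis for each of the 6 SWEET genes in flowers of stages 1-10, 11-12 and 13-14 and in stem, with 1 point per library (arf6 arf8 circles, single-copy squares, wild-type triangles), lines joining the flower stages of a genotype and a dotted line at a signal of 100. SWEET9 and SWEET14 stay at or below 123.8 in all arf6 arf8 flowers, against 1310.2 to 5520.5 (SWEET9) and 1324 to 2196 (SWEET14) in wild-type flowers of stages 11-12 and 13-14.

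SWEET9, the nectar sucrose exporter, had signals of 44.8, 46.7 and 83.9 in arf6 arf8 flowers of stages 1-10, 11-12 and 13-14 and 101.4 in arf6 arf8 stem. In single-copy plants the same 4 tissues gave 111, 1350.5, 5201 and 92.6, and in wild-type 84.7, 1310.2, 5520.5 and 98.0. The 4 high libraries were thus the older flowers of single-copy and wild-type plants, and the other 8 lay between 44.8 and 111. At stages 11-12 and 13-14 the (signal + 50) of arf6 arf8 was 14.1-fold and 41.6-fold lower than that of wild-type, log2 differences of -3.81 and -5.38. With arf6 arf8 signals this low, the size of these values is set in part by the pseudocount: their mean, -4.60, was -5.10 with a pseudocount of 16 and -3.47 with one of 200. Against single-copy flowers, with which the wild-type comparison shares the arf6 arf8 arrays, the log2 differences were -3.86 and -5.29. Within wild-type, stages 13-14 stood 41.4-fold above stages 1-10, within single-copy plants 32.6-fold and within arf6 arf8 1.41-fold. Stem stood 1.60-fold above stage 1-10 flowers in arf6 arf8 and 1.10-fold above them in wild-type, and 1.13-fold below them in single-copy plants.

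SWEET14, a carrier of sucrose and gibberellin, had signals of 123.8, 55.1 and 95.2 in arf6 arf8 flowers of stages 1-10, 11-12 and 13-14 and 163.3 in stem. Single-copy plants gave 215.3, 2769, 2477 and 319.7, and wild-type gave 184.3, 2196, 1324 and 243.3. The highest 4 libraries were again the older single-copy and wild-type flowers, and arf6 arf8 was the lowest genotype in each tissue. The (signal + 50) of arf6 arf8 was 21.4-fold lower than in wild-type at stages 11-12 and 9.46-fold lower at stages 13-14, values that also depend on the pseudocount (mean log2 difference -3.83, but -4.28 with a pseudocount of 16 and -2.80 with one of 200). Unlike SWEET9, which was 4.1-fold higher at stages 13-14 than at stages 11-12 in wild-type, SWEET14 in wild-type was highest at stages 11-12 and 1.64-fold lower at stages 13-14. In single-copy flowers it was 1.12-fold lower at the later stage.

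SWEET13, the close relative of SWEET14 with which it shares its role in anthers, kept part of its signal in the double mutant. It had 302.3, 620 and 429 in arf6 arf8 flowers of the 3 stage groups and 174.6 in stem. Single-copy plants gave 153.5, 1365, 2453 and 77.9, and wild-type gave 233, 1517, 1637 and 105.6. In older flowers both arf6 arf8 libraries were below all 4 single-copy and wild-type libraries, by 2.34-fold and 3.52-fold against wild-type at stages 11-12 and 13-14. In stage 1-10 flowers and in stem, by contrast, arf6 arf8 had the highest signal of the 3 genotypes, 1.24-fold and 1.44-fold above wild-type. Stages 11-12 stood 1.9-fold above stages 1-10 in arf6 arf8, 6.95-fold in single-copy plants and 5.54-fold in wild-type.

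Between stages 1-10 and 11-12 the count of the 6 genes that were at least 2-fold higher, with 200 or more in the brighter library, was 0 in arf6 arf8, where 5.4% of all kept probe sets were. It was 3 in single-copy plants (4.78% of all) and 3 in wild-type (5.23%), each time SWEET9, SWEET13 and SWEET14. At stages 13-14 against stages 1-10 the same 3 genes were higher and SWEET3 and SWEET7 were lower in single-copy plants, where 14% and 9.58% of all were higher and lower, and in wild-type (7.34% and 5.1%). In arf6 arf8 0 were higher (7.31%) and 2 were lower, SWEET3 and SWEET7 (6.91%). Since this course was known when the genes were chosen, the counts only describe it.

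SWEET3 had signals of 1500, 487.7 and 85.8 in arf6 arf8 flowers of stages 1-10, 11-12 and 13-14 and 73.0 in stem. In single-copy plants it had 1677, 819.1, 272.4 and 62.1, and in wild-type 2038, 1364, 324.5 and 123.1. Every genotype declined along the flower stages, with single-copy between arf6 arf8 and wild-type at each stage. The decline from stages 1-10 to stages 11-12 was 2.88-fold in arf6 arf8, 1.99-fold in single-copy plants and 1.48-fold in wild-type. In arf6 arf8 flowers of stages 13-14 the signal was close to that of stem.

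SWEET7, a hexose carrier by its clade, had 986.3, 344.7 and 60.9 in arf6 arf8 flowers of the 3 stage groups and 49.2 in stem. Single-copy plants gave 2450, 1288.5, 109.3 and 43.7, and wild-type gave 1235, 1550, 225.6 and 61.3. In wild-type it was about level up to stages 11-12 (1.24-fold higher than at stages 1-10) and 5.8-fold lower at stages 13-14 than at stages 11-12, whereas in arf6 arf8 it was already 2.63-fold lower at stages 11-12 than at stages 1-10. At stages 11-12 the (signal + 50) of arf6 arf8 was 4.05-fold below wild-type and at stages 13-14 2.49-fold below it. The highest value of all, that of single-copy stage 1-10 flowers, comes from 1 of the arrays with an extreme bioB signal. At stages 11-12 single-copy and wild-type flowers differed 1.2-fold.

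Since SWEET3 and SWEET7 were high in young buds, genes of the young anther were set beside them. Of 9 anther and tapetum markers, 4 are in the annotation. Their summed signal at stages 1-10 was 3687 in arf6 arf8, 5015 in single-copy plants and 6029 in wild-type. In flowers of stages 11-12 and 13-14 it was 962.9 and 648.9 in arf6 arf8, 515.3 and 1096 in single-copy plants and 795.5 and 601.2 in wild-type, most of it from the receptor kinase gene EMS1. The tapetum gene A9 and the tapetum regulator gene AMS were at 8.9 to 54.7 in arf6 arf8 flowers of stages 11-12 and 13-14, 6.6 to 46.2 in single-copy flowers and 6.9 to 118.2 in wild-type flowers. In wild-type flowers of stages 11-12 the 4 markers were at 46.4 (A9), 118.2 (AMS), 79.1 (SPL/NZZ) and 551.8 (EMS1). In the same library SWEET3 had 1364 and SWEET7 1550, its highest wild-type signal. The part of anther tissue in the SWEET3 and SWEET7 levels was not tested. Of 5 pollen markers 2 are in the annotation: their summed signal at stages 11-12 and 13-14 was 1829 and 1467 in arf6 arf8, 1528 and 2709 in single-copy plants and 1486 and 3013 in wild-type. Of the pair, MGH3, a histone gene of pollen sperm cells, had 166.6 and 11.1 in older arf6 arf8 flowers, 317.1 and 180 in single-copy and 483.1 and 159.3 in wild-type flowers, and it fell by 1.54 on the log2 scale in arf6 arf8 against wild-type (SE 0.279, limma adjusted p = 0.0188). The other pollen marker, AT59, a pectate lyase gene, had 1662 and 1456 in arf6 arf8, 1211 and 2529 in single-copy and 1003 and 2853.5 in wild-type flowers of these stages and did not pass (-0.12, SE 0.421, limma adjusted p = 0.889). With whole flowers, expression outside the anther cannot be told apart from expression inside it for any of the 6 genes.

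SWEET10 had signals of 3891, 4050.5 and 2940 in arf6 arf8 flowers of stages 1-10, 11-12 and 13-14 and 1993 in stem. Single-copy plants gave 3592, 3062, 3119 and 1271, and wild-type gave 1641, 1180.2, 1036 and 179.4. The 6 mutant flower libraries were all above the 3 wild-type flower libraries, and both mutant stems were above wild-type stem. The (signal + 50) of arf6 arf8 was 2.33-fold, 3.33-fold and 2.75-fold above wild-type at the 3 flower stages and 8.905-fold above it in stem. That of single-copy plants was 2.15-fold, 2.53-fold and 2.92-fold above wild-type in flowers and 5.76-fold in stem. The single-copy libraries without an extreme bioB signal, stages 11-12 and stem, showed the higher level as well, though the first of them had the highest Actin 3' to 5' ratio. Between arf6 arf8 and single-copy plants the ratio was 1.08, 1.32, 0.943 and 1.55 in the same order of tissues. In the annotation (assembly TAIR10.1) SWEET10 and SWEET13 are neighbours with 0 annotated genes between them, and in older flowers of arf6 arf8 the first was above and the second below wild-type.

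**Figure D2:**
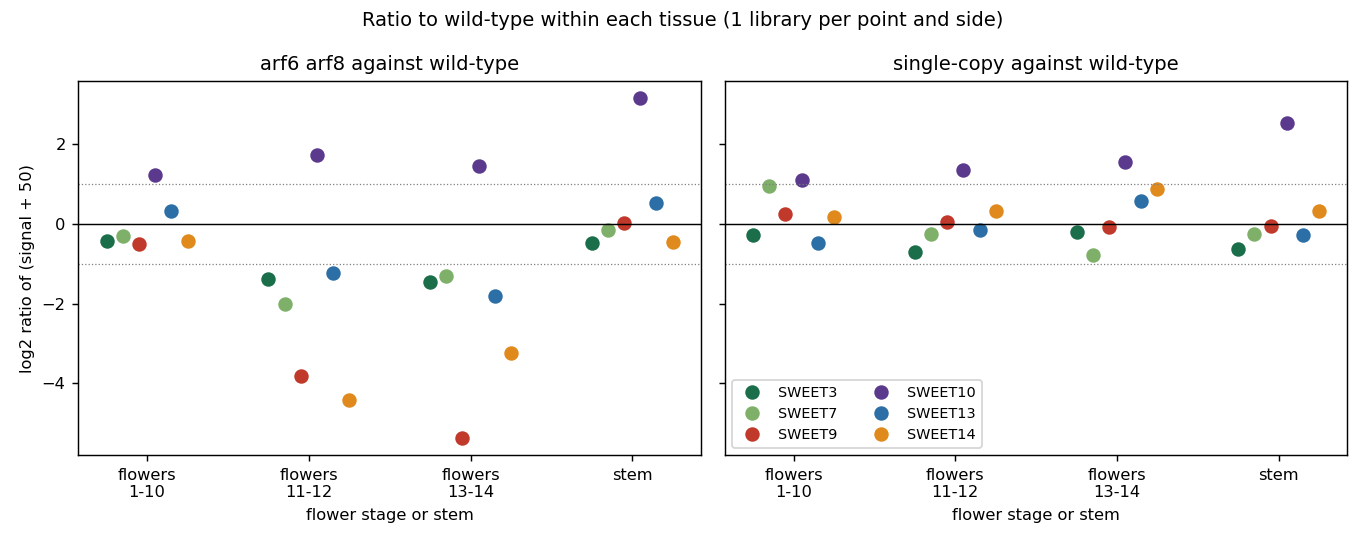
Log2 ratio of (signal + 50) to wild-type for the 6 SWEET genes in each tissue, arf6 arf8 in the left panel and single-copy plants in the right, with 1 library on each side of a ratio and dotted lines at 2-fold. In arf6 arf8 the values of SWEET9 and SWEET14 lie between -3.24 and -5.38 in older flowers, while SWEET10 lies above 1 in all 4 tissues of both mutants.

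Counted at 2-fold or more with 200 in the brighter library, 5 of the 6 genes were lower in arf6 arf8 than in wild-type at stages 11-12, where 3.94% of all kept probe sets were lower. At stages 13-14 it was the same 5 genes, against 5.51% of all. In stage 1-10 flowers 0 were lower (0.986% of all), and in stem 0 were lower (1.62%). SWEET10 was the 1 gene higher in each tissue, where 1.07%, 3.58%, 5.34% and 2.53% of all kept probe sets were higher at stages 1-10, 11-12, 13-14 and in stem. The older-flower counts are those the genes were chosen on. Against single-copy flowers, 4 of the 6 were lower in arf6 arf8 at stages 11-12 (SWEET7, SWEET9, SWEET13 and SWEET14, with 4.52% of all) and 4 at stages 13-14 (SWEET3, SWEET9, SWEET13 and SWEET14, with 5.04% of all).

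In single-copy plants 0 of the 6 genes were 2-fold lower than in wild-type, where 3.71%, 1.76%, 2.98% and 0.504% of all kept probe sets were lower at stages 1-10, 11-12, 13-14 and in stem. SWEET10 was the 1 gene higher in each tissue, beside 1.6%, 0.493%, 2.76% and 0.436% of all.

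Averaged over stages 11-12 and 13-14, the log2 differences of arf6 arf8 from wild-type were -4.60 for SWEET9, -3.83 for SWEET14, -1.67 for SWEET7, -1.52 for SWEET13, -1.43 for SWEET3 and 1.60 for SWEET10. In the fit across all kept probe sets 5.96% passed this comparison in either direction, a background from which nothing is read for genes chosen on it. Against single-copy flowers the differences were -4.57 for SWEET9, -4.43 for SWEET14, -1.73 for SWEET13, -1.14 for SWEET7, -0.97 for SWEET3 and 0.16 for SWEET10. Both comparisons share the arf6 arf8 arrays. For SWEET9 both values are nearly equal, and for SWEET13 and SWEET14 the one against single-copy flowers is the larger in size.

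The genotypes were also compared in stage 1-10 flowers and stem together, called younger tissue. The courses of the genes, which include these libraries, were known when the genes were chosen. The p-values and intervals below are therefore not independent of that choice. The test was limma's moderated test over all 12 libraries, with the 2 tissues standing in for replicates and tissue as a term of the fit. Its error thus mixes array error with genotype differences that are unlike in the 2 tissues. Of the 6 genes 0 passed at an adjusted p of 0.05 between arf6 arf8 and wild-type, where 0.068% of all kept probe sets (12) passed and 1260 had an unadjusted p under 0.05. SWEET10 had the largest difference, 2.19 (SE 0.394, 95% interval 1.29 to 3.09, limma adjusted p = 0.1705), higher in both tissues. It was 1.35 without the wild-type stem library and 1.58 without the arf6 arf8 stem library, against 3.03 without the wild-type stage 1-10 library and 2.80 without the arf6 arf8 stage 1-10 library. The interval is that of 1 gene and takes no account of the many genes tested.

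The other 5 genes differed less in younger tissue. Their intervals rest on the mixed error named above and do not bound the difference between plants. Dim stem signals, such as 49.2 in arf6 arf8 and 61.3 in wild-type for SWEET7, are also compressed by the pseudocount. For SWEET9 the difference was -0.24 (95% interval -1.10 to 0.63), for SWEET7 -0.24 (-1.10 to 0.62) and for SWEET14 -0.45 (-1.07 to 0.18). For SWEET3 it was -0.46 (-0.96 to 0.03) and for SWEET13 0.42 (-0.24 to 1.09). Their adjusted p lay between 0.752 and 0.998 (limma). With any 1 of the 12 libraries left out, the count of 12 probe sets became 0, 1, 2 or 23, and 0 of the 6 genes passed.

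The single-copy plants addressed whether 1 remaining gene copy keeps the wild-type level. Between single-copy and wild-type older flowers, a comparison that shares the wild-type arrays with the one the genes were chosen on, 0 of the 6 genes passed, as did 0% of all kept probe sets (limma, 655 with an unadjusted p under 0.05). The difference was -0.02 for SWEET9 (95% interval -0.88 to 0.84), 0.21 for SWEET13 (-0.45 to 0.87) and 0.60 for SWEET14 (-0.02 to 1.23). It was -0.52 for SWEET7 (-1.39 to 0.34) and -0.46 for SWEET3 (-0.96 to 0.04). Without the pair of single-copy arrays with an extreme bioB signal the values were -0.35 for SWEET9, -0.30 for SWEET13, 0.62 for SWEET14, -0.08 for SWEET7 and -0.72 for SWEET3, so that SWEET13 changed sign.

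SWEET10 had a single-copy difference from wild-type of 1.44 in older flowers (SE 0.394, 95% interval 0.54 to 2.34) and 1.82 in younger tissue (SE 0.394, 0.92 to 2.72). The older-flower value uses the wild-type signals on which SWEET10 was chosen as higher in arf6 arf8, so it is not independent of that choice. Neither passed across all probe sets (limma adjusted p = 1 and 0.721). The younger-tissue comparison called 0.00567% of all kept probe sets, 1 in number, and 0 of the 6 genes. Without the wild-type stem library the younger-tissue value was 0.98, and without the wild-type stage 1-10 library 2.65. It shares these wild-type libraries with the younger-tissue value of arf6 arf8, so the 2 values are not independent of each other. Without the pair of single-copy arrays with an extreme bioB signal the older-flower value was 1.27 and the younger-tissue value 2.04. The other 5 genes had younger-tissue differences between -0.45 (SWEET3) and 0.36 (SWEET7) in single-copy plants, and between -0.61 (SWEET3) and 0.34 (SWEET14) without that pair, where SWEET7 was at -0.28 and SWEET9 at -0.19.

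**Figure D3:**
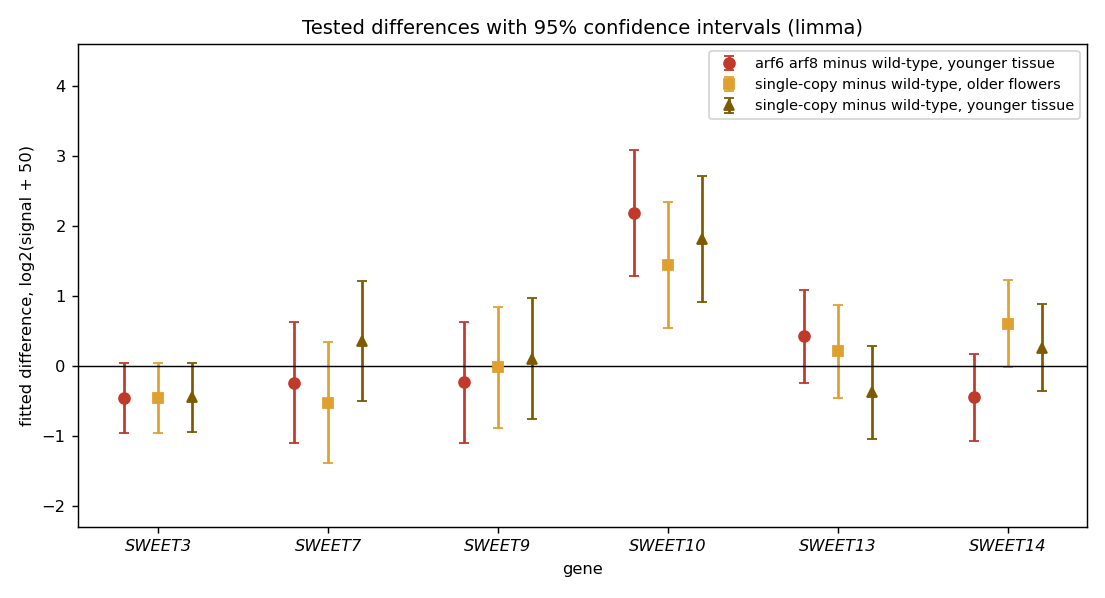
Fitted differences on the log2(signal + 50) scale with 95% confidence intervals (limma, 12 libraries) for the 6 SWEET genes: arf6 arf8 minus wild-type in younger tissue (circles), single-copy minus wild-type in older flowers (squares) and in younger tissue (triangles). The intervals of SWEET10 lie above 0 in all 3 comparisons, and those of the other 5 genes include 0. Yet 0 of these differences passed after adjustment over all 17647 probe sets. The older-flower comparison shares the wild-type arrays of the difference the genes were chosen on. Both younger-tissue comparisons share the wild-type stage 1-10 and stem arrays. Without the wild-type stem array their SWEET10 values were 1.35 (arf6 arf8) and 0.98 (single-copy).

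The genes also differed in how flower and stem compared. The (signal + 50) of stem was below that of stage 1-10 flowers by 12.6-fold in arf6 arf8, 15.4-fold in single-copy plants and 12.1-fold in wild-type for SWEET3. For SWEET7 it was below by 10.45-fold, 26.7-fold and 11.55-fold in the same genotypes, and for these 2 genes the stem was the lower tissue throughout. SWEET10 was lower in stem by 1.93-fold in arf6 arf8, 2.76-fold in single-copy plants and 7.37-fold in wild-type, so the gap between stem and bud was widest in wild-type. SWEET9, SWEET13 and SWEET14 differed by less than 2-fold between stem and stage 1-10 flowers in all 3 genotypes. At 2-fold, stem was thus lower than stage 1-10 flowers for 2 of the 6 genes in arf6 arf8, 3 in single-copy plants and 3 in wild-type, beside 5.24%, 6.35% and 5.68% of all. Against flowers of stages 13-14, stem was at least 2-fold lower for 1 of the 6 genes in arf6 arf8 (SWEET13), for 5 in single-copy plants and for 6 in wild-type, where 8.94%, 8.69% and 9.66% of all kept probe sets were lower.

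Ranked over the 12 libraries, neighbouring levels were often closer than the residual SD of the fit, as moderated by eBayes over all kept probe sets. This SD stands here for the unknown spread between replicates. It is no estimate of that spread, because it also holds genotype differences that are unlike between tissues. For SWEET9 (residual SD 0.378 on the log2 scale) wild-type and single-copy flowers of stages 13-14 were 0.09 apart and those of stages 11-12 were 0.04 apart. The steps from stages 13-14 to 11-12 (1.91) and from there to the remaining libraries (3.08) were wider. For SWEET10 (residual SD 0.394) the mutant flower libraries lay within such steps of each other, and the 1 widest step, 2.24, set wild-type stem below all other libraries. For SWEET14 (residual SD 0.272) the widest step, 1.89, divided the 4 older single-copy and wild-type flower libraries from the rest, and for SWEET13 (residual SD 0.291) the step at that place was 1.08.

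Across the 12 libraries, which share genotypes and tissues, Pearson's r of the log2 values was 0.97 between SWEET3 and SWEET7. It was 0.91 between SWEET9 and SWEET14, 0.85 between SWEET9 and SWEET13 and 0.74 between SWEET13 and SWEET14. SWEET10 had r between -0.11 and 0.36 with the other 5. These values describe the courses above and are no test.

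Among 5299 one-gene probe sets that reached a signal of 500, the courses most like that of SWEET9 were those of AT3G55870 (r = 0.99), AT1G30795 (0.98) and AT1G66540 (0.98), over the same 12 libraries. AT3G55870 had 3.9 and 7.6 in arf6 arf8 flowers of stages 11-12 and 13-14, 233.1 and 1266 in single-copy flowers and 207.7 and 869.2 in wild-type flowers. AT1G30795 had 21.3 and 47.3 in arf6 arf8, 1662 and 4181 in single-copy and 1546 and 2843 in wild-type flowers of these stages. Both were low in young buds and stem of every genotype, where SWEET9 had 44.8 to 111. The genes most like SWEET14 were AT2G38240 (0.95), AT4G24380 (0.94) and AT3G01980 (0.94), and of these AT4G24380 had 446.5 and 398.7 in older arf6 arf8 flowers, 11211 and 2765 in single-copy flowers and 7196 and 4519 in wild-type flowers.

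SWEET13 was most like AT5G24240 (0.96), AT1G68570 (0.95) and LCR72 (0.95). LCR72, of the low-molecular-weight cysteine-rich family, had 1839 and 780.9 in older arf6 arf8 flowers, 3005 and 2911 in single-copy flowers and 2844 and 5544 in wild-type flowers. SWEET3 was most like AT4G04460 (0.97), AT1G21540 (0.97) and SWEET7, and SWEET7 was most like AT5G61605 (0.98), AT5G63060 (0.97) and AT2G42990 (0.97). AT2G42990 showed the same early difference as SWEET7, with 284.6 at stages 11-12 in arf6 arf8, against 1930.4 in single-copy and 2602.5 in wild-type flowers. No gene followed SWEET10 as closely: the most like were ALDH10A9 (0.91), an aldehyde dehydrogenase gene, AT5G49950 (0.90) and AT4G26240 (0.88). Their signals varied little, for ALDH10A9 between 1463 and 1640.2 in arf6 arf8, 1409.5 and 1671 in single-copy plants and 964.3 and 1344.5 in wild-type.

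Of the 11 other SWEET genes, 10 are in the annotation and were kept. In older flowers 0 of these 10 passed in either direction between arf6 arf8 and wild-type, where 5.96% of all kept probe sets passed. With so few genes a count of 0 is near that share. The 10 are also what was left once the 6 genes were chosen with this difference known. Of the 10, 5 lay below 0, and their median log2 difference was 0.02, beside 0.05 over all kept probe sets. SWEET4, a hexose carrier, had signals of 1716 and 1714 at stages 11-12 and 13-14 in arf6 arf8, 3467 and 4533 in single-copy flowers and 3356 and 3904.5 in wild-type flowers, a difference of -1.06 from wild-type (SE 0.273, limma adjusted p = 0.0591). SWEET15, known as the senescence-associated gene SAG29, had 256.5 and 297.8 in arf6 arf8, 172.3 and 1422 in single-copy and 306 and 1650.5 in wild-type flowers of these stages, so its high level at stages 13-14 was seen in single-copy and wild-type flowers alone (-1.25 from wild-type, SE 0.54, limma adjusted p = 0.205). SWEET11, a phloem-loading carrier, lay the other way, with 5140 and 7062 in arf6 arf8, 1941 and 3852 in single-copy and 2050.4 and 4178 in wild-type flowers (1.03, SE 0.39, limma adjusted p = 0.16).

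The remaining SWEET genes had older-flower differences from -0.83 to 0.72. SWEET8, which nourishes developing pollen, was the lowest of them at -0.83 and differed by -1.70 in younger tissue (SE 0.365, limma adjusted p = 0.223), with 737.3 in arf6 arf8, 1802 in single-copy and 2591 in wild-type stage 1-10 flowers. At stages 13-14 it had 264.3 in arf6 arf8, 222.7 in single-copy and 274 in wild-type flowers. SWEET2 was the highest at 0.72, SWEET1 differed by 0.30 and SWEET5, expressed in the vegetative cell of pollen, by 0.22. In younger tissue 0 of the 10 passed as well, where 0.068% of all kept probe sets passed, and their median was -0.03.

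**Figure D4:**
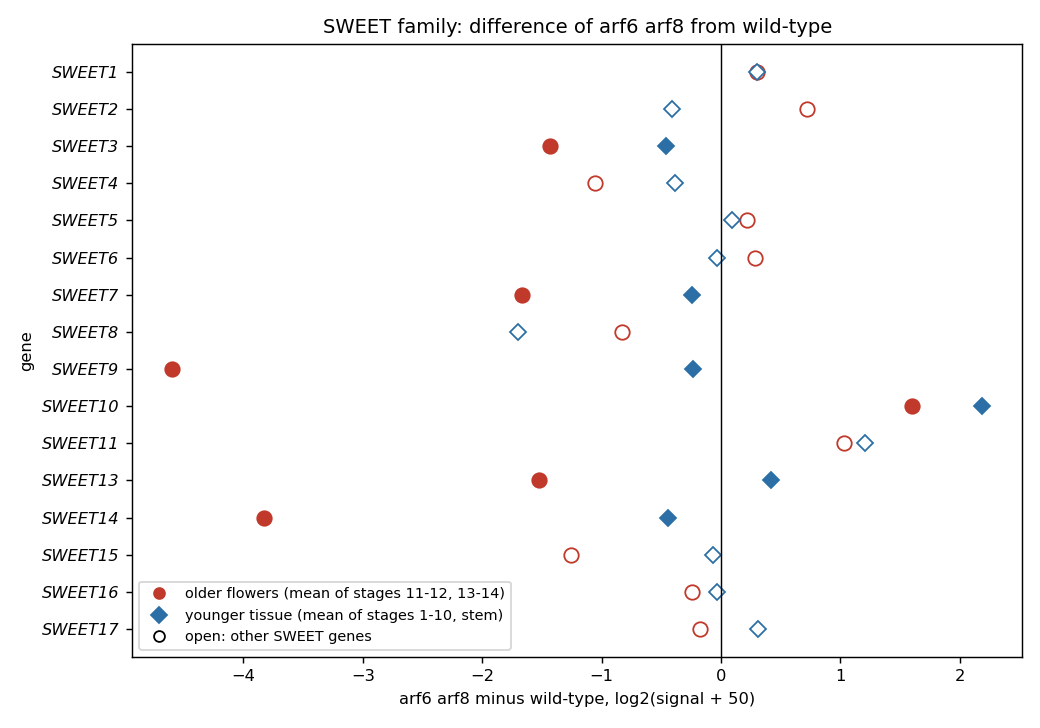
Difference of arf6 arf8 from wild-type on the log2(signal + 50) scale for the 16 SWEET genes in the annotation, as the mean of stages 11-12 and 13-14 (circles) and of stage 1-10 flowers and stem (diamonds), with the 6 genes described here filled and the other 10 open. SWEET9 and SWEET14 lie farthest to the left in older flowers at -4.60 and -3.83, and SWEET10 lies to the right in both.

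Other genes of sugar transport and of nectaries were covered only in part, because the annotation lists 14016 of the 22810 probe sets and a gene without a listed probe set was not analysed here. Of 14 hexose transporter genes of the STP family 4 are in the annotation, of which 0 passed in older flowers (median 0.36). Of 3 tonoplast sugar transporter genes 3 are in it, of which 0 passed (median -0.01). Of all kept probe sets 5.96% passed there, so these counts of few genes say little. STP3, the brightest of its list, had 503.6 and 657.3 in older arf6 arf8 flowers, 590.1 and 678.2 in single-copy flowers and 408.3 and 402.7 in wild-type flowers. The sucrose phosphate synthase gene ATSPS4F, the 1 of 4 in the annotation, had 957.5 and 1002 in older arf6 arf8 flowers, 643.9 and 498.1 in single-copy and 624.5 and 377.5 in wild-type flowers (0.94, SE 0.241, limma adjusted p = 0.0579). Of 6 cell wall invertase genes 1, CWINV6, is in the annotation, at signals of up to 105.6. The 9 sucrose transporter genes of the SUC family were not analysed here.

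Of 10 nectary genes, the 1 in the annotation is JMT, the jasmonate carboxyl methyltransferase gene, and in older arf6 arf8 flowers it fell by 2.06 on the log2 scale against wild-type (SE 0.337, limma adjusted p = 0.0129). Its signals at stages 11-12 and 13-14 were 190.7 and 131.9 in arf6 arf8, 650.8 and 1446 in single-copy and 738.6 and 917.4 in wild-type flowers. At stages 1-10 JMT had 631.8 in arf6 arf8, 928.6 in single-copy and 1028.1 in wild-type flowers. In wild-type it was thus highest in young buds, where SWEET9 had 84.7. The lists were drawn up with earlier results of these data known, so the p-values of JMT and MGH3 cannot be taken as independent of those results. In the shorter list of nectary markers SWEET9 is the 1 of 3 in the annotation, and the part of nectary tissue in the SWEET9 level was not tested. Of 5 stem secondary wall markers 0 are in the annotation.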

How the data were processed

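Total RNA from the 12 samples was labelled with biotin and hybridised to 1-colour arrays. The authors deposited signal intensities on a linear scale, made with MAS5 per the submitters' processing notes. The sources used here give no MAS5 version. The arrays' mean after trimming 2% at each end lay between 500.03 and 500.04. Of 22810 probe sets, 64 controls were left out.

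Values were analysed as log2(signal + 50) in R 4.3.3 by limma 3.58.1 (lmFit and trended eBayes; genotype by phase plus tissue within phase; 12 libraries), two-sided, with Benjamini-Hochberg adjustment over 17647 kept probe sets. Stages 11-12 and 13-14 were older flowers, and stages 1-10 and stem younger tissue. There were no replicates within a genotype and tissue. The error behind the p-values therefore mixes array error with genotype differences that are unlike between the tissues of a phase. The number of arrays limits the precision. The script was tested on simulated data.

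The members, gene lists and settings were chosen with earlier results of these data known. Named genes were the members, the other SWEET genes, up to 4 of the brightest in each list and the 3 with the highest r to each member. The alternatives varied pseudocount, filter, scaling, eBayes trend and libraries. Names came from the platform table joined to RefSeq by gene ID.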

Additional observations from a re-analysis of the deposited data

Results flagged for a closer look

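SWEET13 stands out because its difference between arf6 arf8 and wild-type has opposite signs in the older and the younger libraries. It was -1.52 on the log2 scale as the mean of stages 11-12 and 13-14, lower in both, and 0.42 as the mean of stage 1-10 flowers and stem, higher in both. The difference between these 2 values was not tested. The younger-tissue value alone did not pass (limma adjusted p = 0.897).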

How the results depend on the processing

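In older flowers the differences of arf6 arf8 from wild-type kept their direction for all 6 genes under every alternative run. The genes were chosen on this direction, so its persistence is no test. Changes of filter or eBayes trend, and leaving out libraries outside the compared groups, leave these differences unchanged by construction. SWEET9 was at -5.10 and SWEET14 at -4.28 with a pseudocount of 16, and SWEET9, SWEET14, SWEET7 and SWEET3 were at -3.47, -2.80, -1.19 and -1.03 with one of 200, which compresses dim values by construction. With 1 library left out they ranged from -5.35 to -3.85 (SWEET9), -4.28 to -3.38 (SWEET14), -2.15 to -1.18 (SWEET7) and -2.0 to -1.05 (SWEET13), and SWEET10 from 1.41 to 1.79. The count of 1052 probe sets called there was 253 when stems were left out. It was 2453 when the pair of single-copy arrays with an extreme bioB signal (stages 1-10 and 13-14) was left out. It lay between 153, without wild-type stage 13-14, and 2348, without single-copy stage 13-14.

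In younger tissue the count of 12 for arf6 arf8 was 5 with a pseudocount of 200, 2 without a filter, 7 with quantile normalization, 0 without stems, 1 without that pair of arrays, and 0 to 23 with 1 library left out. The single-copy count in older flowers, 0, became 1 with quantile normalization and 0 to 1 with 1 library left out. In younger tissue the single-copy count of 1 became 2 with a pseudocount of 16 or eBayes without trend, 0 without stems or without that pair, and 0 to 2 with 1 library left out. In these 3 tests 0 of the 6 genes passed under any alternative run. Counts of the 6 genes between stages 1-10 and 13-14 were the same with both other pseudocounts and quantile normalization.

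Differences near 0 changed sign. SWEET9 was at 0.0407 in single-copy older flowers with quantile normalization. Without that pair of arrays, SWEET13 was at -0.30 in single-copy older flowers, and SWEET7 and SWEET9 were at -0.28 and -0.19 in single-copy younger tissue. With 1 library left out, arf6 arf8 in younger tissue ranged from -0.61 to 0.14 (SWEET7) and -0.58 to 0.11 (SWEET9). Single-copy older flowers ranged from -0.44 to 0.40 (SWEET9) and -0.30 to 0.72 (SWEET13), and younger tissue from -0.28 to 1.00 (SWEET7) and -0.19 to 0.39 (SWEET9). Where no reason is given, the cause was not tested. No paired analysis was possible because the labels give no replicate numbers. Tissue, which the genotypes share, is already a term of the fit. Signals below 100 carry little information on order.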
